A study of Mus musculus with 10 samples.

Results

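Murine utricular supporting cells that had been treated with TRULI, then cultured without it, were compared with supporting cells that had received only the vehicle. The comparison rested on 4 of the 10 libraries of the series, chosen by the names under which their count tables were deposited: 2 libraries named for TRULI followed by withdrawal and 2 named for the DMSO control at the same time. All 21695 protein-coding genes of the tables were considered, of which 10845 had enough counts in these 4 libraries to be tested.

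The utricles were explanted from Lfng-EGFP mice at postnatal day 21, whose supporting cells carry green fluorescent protein driven by Lfng regulatory sequence, and the fluorescent cells were sorted before RNA extraction. Treated explants received 10 µM TRULI, an inhibitor of the kinases Lats1 and Lats2, in 0.1% DMSO for 5 days and then spent 5 days without the compound; control explants received 0.1% DMSO for 5 days and then the same 5 days without it. The other 6 libraries, named for cells collected at the end of the first 5 days, consisted of 3 from DMSO and 3 from TRULI and are used only as a range. The methods describe the replicates as biological. The labels do not say which cultures or animals each library came from, and p-values measure only the spread between these libraries.

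File names and sample titles disagreed for 4 of the 10 libraries. Both libraries named as the withdrawal controls are titled as TRULI at 5 days, and the samples titled as withdrawal controls hold tables named as TRULI at 5 days. The 2 TRULI withdrawal libraries have the same condition in name and title. All values below follow the deposited names. Grouped by title, 132 genes were called higher and 133 lower by edgeR, against 0 by name.

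Hair cells are the mechanosensory receptors of the inner ear, and supporting cells surround them and can act as their source. The transcription factor Atoh1 starts hair-cell differentiation, and Pou4f3 and Gfi1 act after it. Mature hair cells then express the proteins of the mechanotransduction channel, the myosins and crosslinkers of the stereocilia, and the calcium sensors of the ribbon synapse. Lats kinases phosphorylate the coactivator Yap and hold it out of the nucleus, so their inhibition lets Yap and its Tead partners activate growth genes.

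The 4 tables summed to 3115752 to 6255149 counts. The mitochondrial ribosomal RNA mt-Rnr2 took 1.45% to 2.53% of the counts in these 4 libraries and 13.02% to 26.4% in the other 6, so the comparison by name stayed on one side of that split and the grouping by title crossed it. When the counts of 2 libraries were set against each other over genes, the chi-square divided by its degrees of freedom, which grows with their depth, was 51.7 for the TRULI withdrawal pair and 42.4 for the DMSO pair. Across the groups it ran from 30.2 to 53.4, and each of the 4 libraries was nearer by this measure to some library of the other group than to its own replicate. Within the groups of 5 days it ran from 12.8 to 23.0.

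Replicates also differed gene by gene. Values are given as CPM, counts scaled to the same protein-coding total in every library and by the trimmed mean of M values. Of the 10845 tested genes, 772 differed over 4-fold between the TRULI withdrawal replicates after 1 CPM was added, and 811 did so between the DMSO replicates. The 6 pairs of replicates at 5 days had 71 to 222 such genes.

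**Figure D1:**
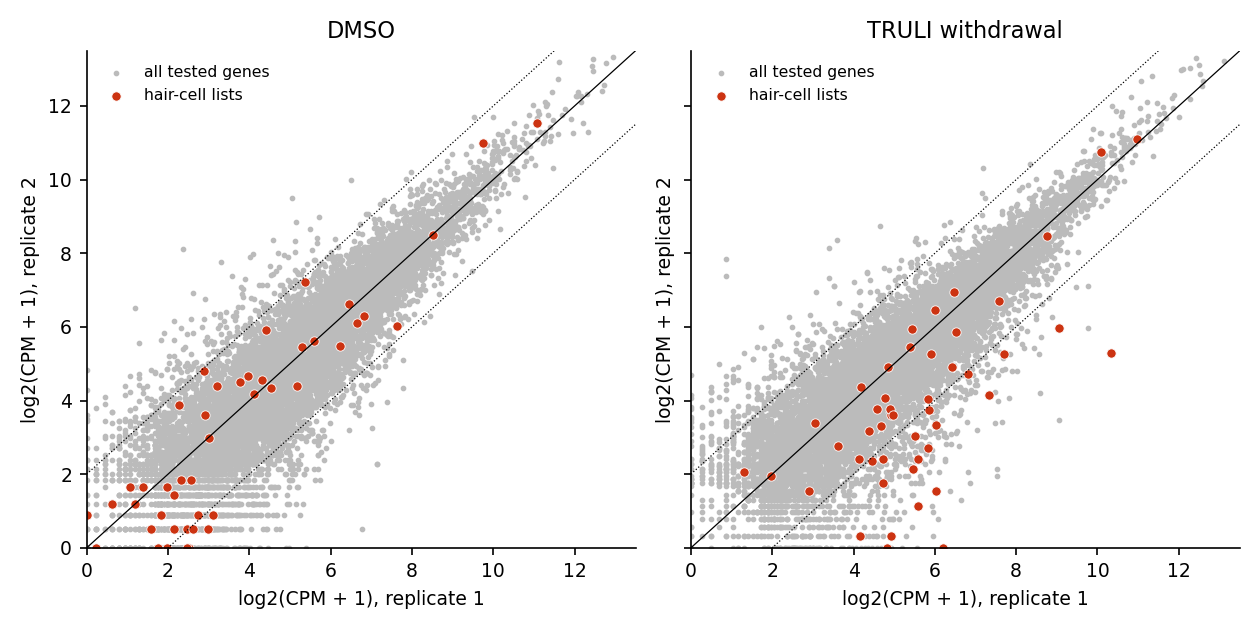
Level of each tested gene, as log2(CPM + 1), in replicate 1 (horizontal axis) against replicate 2 (vertical axis) for the 2 DMSO libraries and for the 2 TRULI withdrawal libraries. Grey points are all 10845 tested genes and red points the 47 tested genes of the hair-cell lists. The solid line marks equal levels and the dotted lines a 4-fold difference. Below the lower dotted line lie 20 red points in the TRULI pair and 6 in the DMSO pair. Of all tested genes, 497 lie below it in the TRULI pair and 540 in the DMSO pair.

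No gene passed the threshold of an adjusted p under 0.05 with a log2 fold change beyond 1 in the quasi-likelihood test of edgeR, adjusted after Benjamini and Hochberg, which makes 0% of the genes tested. The smallest adjusted p was 0.683, and a count of 0 does not show that levels were equal. At an unadjusted p under 0.05, 353 genes (3.25%) were higher after TRULI withdrawal and 163 (1.5%) were lower. DESeq2 on the same genes called 42 higher (0.387%) and 8 lower (0.0738%).

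A cruder measure asks only whether the groups overlapped. Both TRULI withdrawal libraries lay above both DMSO libraries for 1679 genes, 15.5% of those tested, and below both for 1439 genes, 13.3%. The median log2 fold change of all tested genes was 0.01.

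Many hair-cell genes had more RNA in both TRULI withdrawal libraries than in both controls, by an amount that differed widely between the 2 TRULI withdrawal replicates. None passed the edgeR threshold. The 8 defining markers (Atoh1, Pou4f3, Gfi1, Myo7a, Otof, Tmc1, Lhx3 and Calb2) summed to 37.6 and 47.0 CPM in the DMSO libraries, and to 1030.0 CPM in TRULI replicate 1 and 152 CPM in TRULI replicate 2. Both treated sums exceeded both control sums. An exact permutation test over 4 libraries, two-sided, gave p = 0.333, the smallest value that 2 samples against 2 allow.

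Of 72 genes on the lists of hair-cell transcription factors, transduction proteins, stereocilia proteins and synaptic or calcium-handling proteins, 47 could be tested. Both TRULI libraries lay above both DMSO libraries for 18 of these 47 and below both for 1, while 28 overlapped, against 15.5% and 13.3% of all tested genes. At an unadjusted p under 0.05 in edgeR, 18 of the 47 were higher and 0 lower, and 0 passed after adjustment. DESeq2 called 7 of the 47 higher and 0 lower: Pou4f3, Clrn1, Espnl, Loxhd1, Otof, Calb2 and Snap25. The median log2 fold change of the 47 was 2.00, beside 0.01 for all tested genes. Passing the filter depended on a gene being high in at least one group, so these 47 do not stand for the whole list; of the 25 members left out, 6 had at most 3 counts in any of the 4 libraries, and Insm1 and Calb1 had none.

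**Figure D2:**
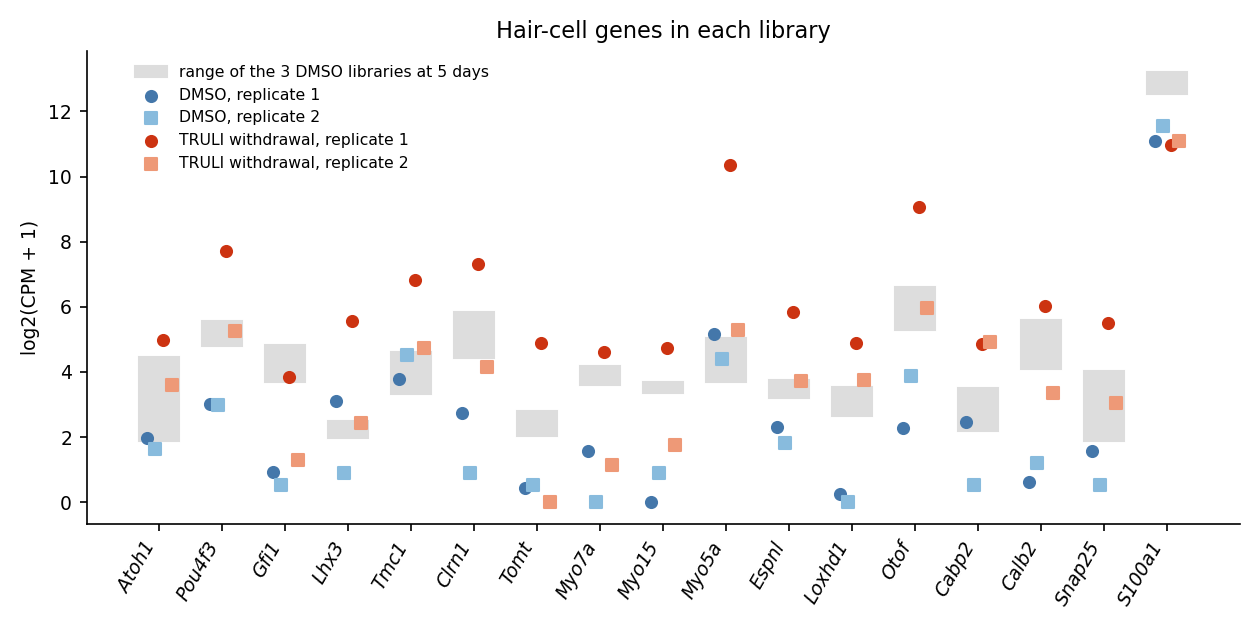
Level of 17 hair-cell genes, as log2(CPM + 1), in each of the 4 libraries: blue for DMSO, red for TRULI withdrawal, circles for replicate 1 and squares for replicate 2. Grey bars span the 3 DMSO libraries collected at 5 days. TRULI replicate 1 was above both controls for every gene plotted except S100a1, whereas TRULI replicate 2 was often within the grey bar, as for Pou4f3 at 37.4 CPM and Otof at 61.6 CPM. The genes plotted were picked from the lists, and overlapping members such as Pls1, Myo6 and Isl1 are not shown. Over all 47 tested genes of the hair-cell lists, replicate 1 was above both controls for 33 and replicate 2 for 20.

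Among the transcription factors, 2 of the 8 tested genes were higher in both TRULI libraries, 0 were lower in both and 6 overlapped. Beside them stand 15.5% of all tested genes higher in both and 13.3% lower in both. The limit that the filter set for the 47 holds for each hair-cell list as well. Pou4f3, needed for hair-cell maturation and survival (GRCm38, chromosome 18, 42394539 to 42397249), measured 7.08 and 6.84 CPM in the DMSO libraries and 208 and 37.4 CPM after TRULI withdrawal. Both treated libraries were far above the controls, and replicate 1 was well above replicate 2. The log2 fold change was 4.14 ± 0.84 (SE, n = 2 per group, adjusted p = 0.844 in edgeR with Benjamini-Hochberg adjustment, 8.17e-05 in DESeq2).

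Atoh1 (chromosome 6, 64729125 to 64731245) measured 2.91 and 2.14 CPM in the controls, and 30.6 and 11.1 CPM in the treated libraries. The groups did not overlap, and the log2 fold change was 3.02 ± 0.92 (SE, adjusted p = 0.844 in edgeR, 0.171 in DESeq2).

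Gfi1, a zinc-finger repressor that acts with the other 2, was too low to be tested. It measured 0.908 and 0.427 CPM in the controls and 13.3 and 1.45 CPM in the treated libraries. Lhx3, a LIM-homeodomain factor of hair cells, overlapped between the groups, with 7.63 and 0.855 CPM against 46.8 and 4.35 CPM. Ikzf2 (64.1 to 198 CPM), Isl1 (63.4 to 112 CPM) and Rfx3 (12.6 to 24.4 CPM) also overlapped; these factors are not restricted to hair cells.

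The sequences ahead of 3 hair-cell genes whose groups did not overlap are shown because both treated libraries lay above both controls for each. Each run gives the 250 bases before the annotated start from RefSeq (GRCm38.p6), read 5′ to 3′ on the gene's strand, with CAGNTG, a form of the E-box that Atoh1 and related factors recognize, in capitals where it occurs on either strand (CANCTG is its reverse complement). Clrn1 lies on the minus strand at chr3:58885213-58885462, Espnl on the plus strand at chr1:91321825-91322074 and Atoh1 on the plus strand at chr6:64728875-64729124.
Clrn1: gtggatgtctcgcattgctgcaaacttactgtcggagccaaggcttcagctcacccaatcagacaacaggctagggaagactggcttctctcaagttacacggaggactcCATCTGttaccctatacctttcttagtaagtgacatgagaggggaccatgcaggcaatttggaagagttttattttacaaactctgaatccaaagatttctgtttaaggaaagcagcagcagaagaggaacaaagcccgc
Espnl: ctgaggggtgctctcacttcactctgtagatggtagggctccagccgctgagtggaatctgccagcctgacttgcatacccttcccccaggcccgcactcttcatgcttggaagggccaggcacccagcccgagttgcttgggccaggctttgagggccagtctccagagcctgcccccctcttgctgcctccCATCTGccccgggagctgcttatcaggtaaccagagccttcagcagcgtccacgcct
Atoh1: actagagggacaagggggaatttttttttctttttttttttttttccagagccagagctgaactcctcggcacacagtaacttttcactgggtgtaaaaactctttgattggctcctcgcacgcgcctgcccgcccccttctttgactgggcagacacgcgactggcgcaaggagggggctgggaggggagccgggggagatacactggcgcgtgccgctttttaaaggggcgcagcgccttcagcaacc
Clrn1 and Espnl held the motif once each and Atoh1 did not hold it in this window. The motif occurred in 44.8% of all 32851 windows of the same length, and in a window of 32 of the 54 hair-cell list genes that matched by symbol. The percentage counts windows and the 32 of 54 counts genes, so they are not on one scale and show no enrichment. A match describes letters only.

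For mechanotransduction, 3 of the 8 tested genes, which encode the channel at the stereociliary tips and its partners, were higher in both TRULI libraries (Tmc1, Cib2 and Clrn1) and 0 were lower in both. The shares of all tested genes were 15.5% higher in both and 13.3% lower in both. Clrn1, the Usher syndrome protein clarin 1 (chromosome 3, 58844028 to 58885340), measured 5.63 and 0.855 CPM in the controls, and 159 and 16.7 CPM after withdrawal. The groups did not overlap and the log2 fold change was 4.64 ± 1.15 (SE, adjusted p = 0.844 in edgeR, 0.000762 in DESeq2).

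Tmc1, a pore-forming subunit of the channel, measured 12.7 and 21.8 CPM in the controls, and 111 and 25.4 CPM in the treated libraries. Replicate 2 was barely above the higher control, and the log2 fold change was 2.00 ± 0.76 (SE, adjusted p = 0.968 in edgeR). Cib2, a calcium-binding partner of the channel, measured 0.545 and 1.28 CPM against 16.4 and 4.35 CPM. Tomt, which carries the channel to the bundle, had 0.363 and 0.427 CPM in the controls, 28.7 CPM in replicate 1 and 0 in replicate 2. Ush1c (57.5 to 100 CPM) and Pcdh15 (40.5 to 149 CPM), both tip-link genes, overlapped between the groups.

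In the stereocilia list, 6 of the 17 tested stereocilia genes were higher in both TRULI libraries (Myo15, Myo5a, Espn, Espnl, Loxhd1 and Grxcr2), 1 (Whrn) was lower in both and 10 overlapped. For all tested genes these shares were 15.5% higher and 13.3% lower. Loxhd1, a plasma-membrane protein of mature stereocilia, had 1 count in the 2 controls together and 28.7 and 12.6 CPM in the treated libraries, a ratio of 167 with a 95% exact counting interval of 29.5 to 6613. Myo15, the motor that delivers proteins to stereociliary tips, had 2 counts in the controls and 25.6 and 2.42 CPM in the treated libraries, a ratio of 58.3 (15.8 to 486). These intervals cover counting error only, not the difference between replicates.

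Espnl, an actin-binding relative of espin, measured 3.995 and 2.56 CPM in the controls, and 56.5 and 12.3 CPM after withdrawal. Its log2 fold change was 3.36 ± 0.93 (SE, adjusted p = 0.844 in edgeR, 0.0491 in DESeq2). Myo5a rested on 1 library, with 35.0 and 20.1 CPM in the controls, 1299 CPM in replicate 1 and 38.2 CPM in replicate 2. Myo7a, the Usher syndrome myosin, had 2.00 and 0 CPM against 23.5 and 1.21 CPM, so replicate 2 fell between the controls. The most abundant members, Pls1 (860 to 2040.2 CPM) and Myo6 (350 to 433 CPM), overlapped.

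At the synapse, 7 of the 14 tested synaptic and calcium-handling genes were higher in both TRULI libraries and 0 were lower in both. As elsewhere, 15.5% of all tested genes were higher in both and 13.3% lower in both. Otof, the calcium sensor for vesicle release at the ribbon synapse (chromosome 5, 30367062 to 30461932), measured 3.81 and 13.7 CPM in the controls, and 532 and 61.6 CPM after withdrawal. The groups were well apart, and the log2 fold change was 5.16 ± 1.05 (SE, adjusted p = 0.844 in edgeR, 2.61e-06 in DESeq2).

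Calb2, the calcium buffer calretinin, measured 0.545 and 1.28 CPM in the controls, and 64.6 and 9.18 CPM after withdrawal, a log2 fold change of 5.43 ± 1.19 (SE, adjusted p = 0.844 in edgeR, 0.000762 in DESeq2). Cabp2, a calmodulin-like regulator of hair-cell calcium channels, had nearly equal treated replicates, with 4.54 and 0.427 CPM in the controls and 27.8 and 29.0 CPM after withdrawal. S100a1 overlapped and lay between 2021 and 2986 CPM; it made up most of the summed level of this list, which was 2259.5 and 3061 CPM against 2998 and 2389 CPM. Calb1 had no count in any of the 4 libraries.

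The 2 TRULI withdrawal libraries did not differ by one common factor. Replicate 1 was the higher of the pair for 37 of the 47 tested hair-cell genes, beside 48.9% of all tested genes. Over 4-fold differences were higher in replicate 1 for 20 of the 47 and higher in replicate 2 for 0. Of all 10845 tested genes, 497 were over 4-fold higher in replicate 1 and 275 in replicate 2. Cabp2 was level between them, Loxhd1 differed by 28.7 against 12.6 CPM, and Xirp2, a stereocilia actin-binding protein, had 72.7 CPM in replicate 1 and no count in replicate 2. In bulk RNA of sorted cells, more cells of a type and more RNA per cell cannot be told apart, and whether hair cells were carried through the sort was not tested.

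The 8 hair-cell markers were lower in the controls at this time than elsewhere in the series. The summed transduction and synapse lists were also below the DMSO libraries of 5 days. The summed stereocilia list was not, at 1548 and 2747 CPM in these controls against 1112 to 1320 CPM in those libraries. Much of that sum was Pls1, at 860 and 2040.2 CPM in these controls against 392 to 689 CPM in those libraries. For 5 of the 17 tested stereocilia genes both of these controls were below every DMSO library of 5 days. Hair-cell transcription factors summed to 371 and 198 CPM against 262 to 286 CPM. The 8 markers summed to 170 to 270 CPM in the 3 DMSO libraries collected at 5 days and to 205 to 865 CPM in the 3 TRULI libraries collected then. TRULI withdrawal replicate 2, at 152 CPM, was thus below all 6 of them, and replicate 1, at 1030.0 CPM, above all 6. For 19 of the 47 tested hair-cell genes both withdrawal controls were below every DMSO library of 5 days, and for 21 of the 47 TRULI withdrawal replicate 2 was within the range of those DMSO libraries. The same counts were 11 and 8 of 27 tested supporting-cell genes, and 1 and 5 of 27 tested G2/M genes. A drop in both controls was thus also seen among supporting-cell genes. The shares over all tested genes were not counted, so these counts have no background and show no pattern of hair-cell genes. Time in culture and the mt-Rnr2 share differed together between the 5-day and withdrawal libraries and cannot be told apart.

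**Figure D3:**
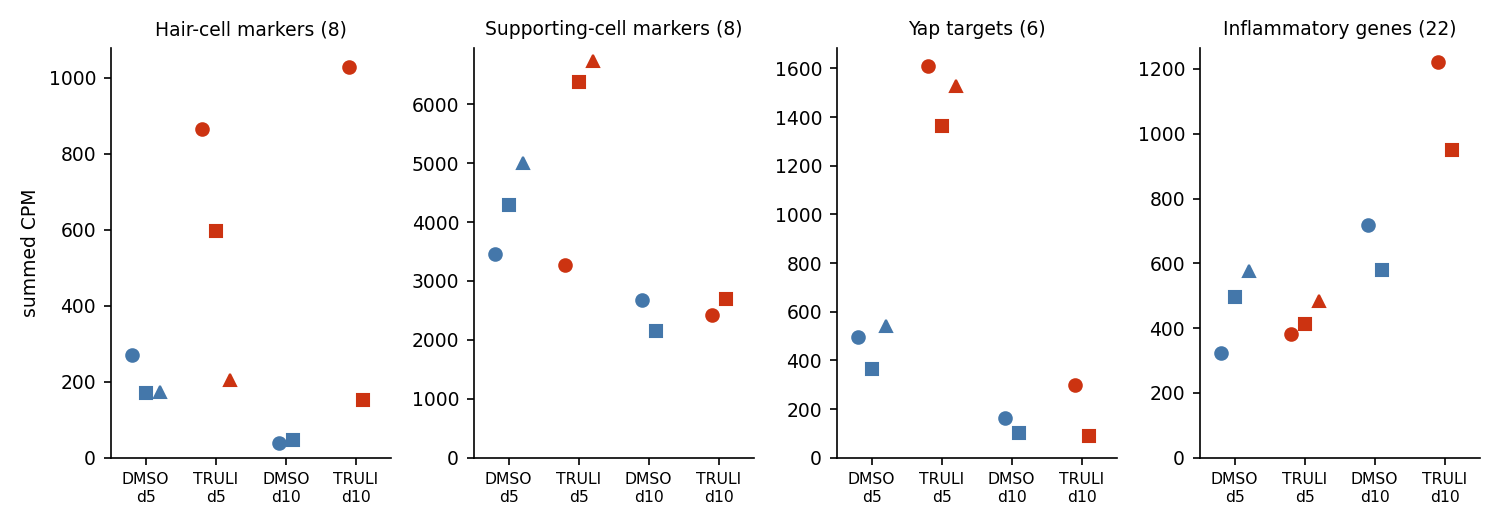
Summed CPM of 4 gene lists in all 10 libraries, grouped by deposited name (d5, collected at 5 days; d10, after a further 5 days without compound), with blue for DMSO and red for TRULI and a marker shape for each replicate number. Hair-cell markers were 37.6 and 47.0 CPM in the d10 DMSO libraries and 1030.0 and 152 CPM in the d10 TRULI libraries. Yap targets were 91.1 to 298 CPM in the 4 d10 libraries, with 163 and 103 CPM in the DMSO libraries among them. At d5 they were 364 to 542 CPM in the DMSO libraries and 1364 to 1609 CPM in the TRULI libraries.

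Genes of motile cilia, which share axonemal proteins with the kinocilium of the hair cell, could be tested for 10 of 26 listed genes; the symbols of 2 others were not matched in the annotation used. Both TRULI libraries were above both controls for 4 of the 10 (Dnali1, Cfap43, Rsph4a and Drc1), beside 15.5% of all tested genes, and below both for 0. Cfap43 measured 4.54 and 0 CPM in the controls, and 36.4 and 8.70 CPM after withdrawal. Dnah11 (24.8 to 92.1 CPM) and Tekt1 (14.2 to 28.2 CPM) were more abundant and overlapped. Cfap77, an axonemal microtubule protein that was not on the list, had the lowest p of all genes, with 2 counts in the controls together and 33.9 and 34.3 CPM in the treated libraries. Its replicates were level, and the ratio was 134 with a 95% exact counting interval of 36.7 to 1109.

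Supporting-cell and prosensory genes mostly overlapped between the groups, as most tested genes did. Of 28 listed, 27 were tested. Of these, 2 were higher in both TRULI libraries (Lfng and Tecta), 3 lower in both (Sox2, Hey2 and Notch1) and 22 overlapped. Among all tested genes 15.5% were higher in both and 13.3% lower in both. The median log2 fold change of the list was 0.08. Otog, a protein of the otolithic membrane, ranged from 2502 to 5136 CPM in the 4 libraries, and Sox9, a transcription factor of supporting cells, from 834 to 1063 CPM. The 8 defining supporting-cell markers summed to 2145 to 2686 CPM in the 4 libraries, above the 37.6 to 1030.0 CPM of the 8 hair-cell markers.

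Lfng, the Notch-modifying glycosyltransferase whose reporter was used for the sort, measured 74.1 and 25.2 CPM in the controls, and 120 and 78.5 CPM after withdrawal. The treated libraries were just above the controls, with a log2 fold change of 0.99 ± 0.60 (SE, adjusted p = 0.9999 in edgeR). All 4 libraries were below the 348 to 653 CPM of the 6 libraries of 5 days. Sox2, the prosensory factor, measured 54.8 and 42.3 CPM in the controls, and 37.6 and 39.1 CPM after withdrawal, a log2 fold change of -0.35 ± 0.53 (SE, adjusted p = 0.9999 in edgeR). The Notch target Hes5, at 10.1 to 30.6 CPM in the DMSO libraries of 5 days, had no count in 3 of the 4 libraries and 0.242 CPM in TRULI replicate 2.

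**Figure D4:**
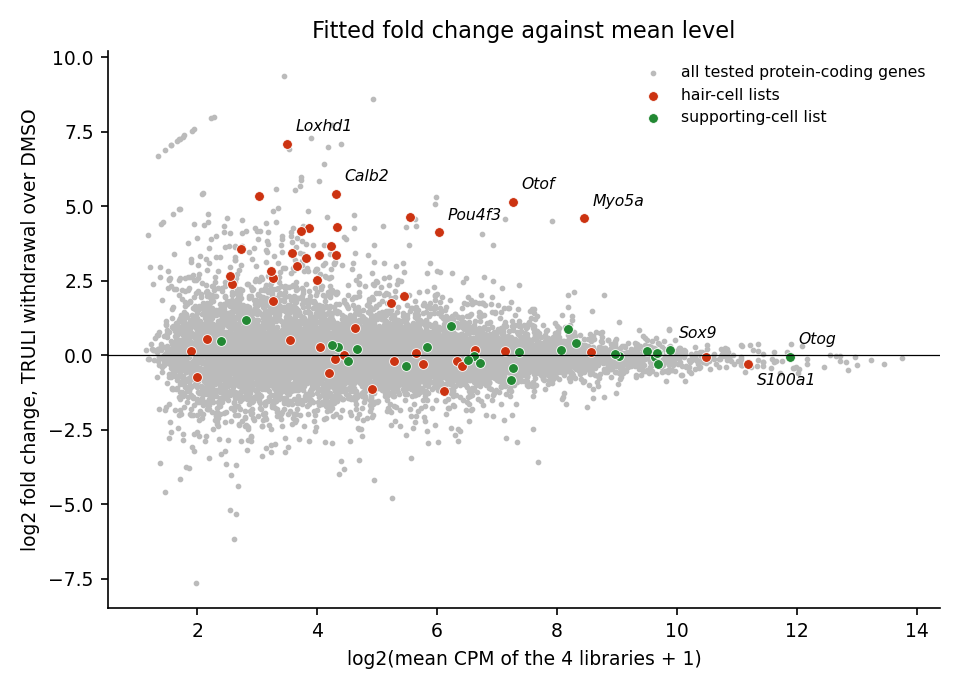
Fitted log2 fold change of TRULI withdrawal over DMSO (vertical axis) against mean level, as log2(mean CPM of the 4 libraries + 1), for the 10845 tested genes in grey, with hair-cell list genes in red and supporting-cell list genes in green. The median was 0.08 for the 27 tested of 28 supporting-cell genes and 2.00 for the 47 tested of 72 hair-cell genes. Passing the filter depended on a gene being high in either group, so the 47 do not stand for their list. The 2 medians are therefore not on an equal footing, and no gene passed the edgeR threshold.

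Most targets of Yap overlapped between the groups 5 days after the compound had been removed, as most tested genes did. Of the 6 genes that the study labels as targets, 5 were tested, 1 (Myc) was higher in both TRULI libraries and 0 were lower in both. Among all tested genes 15.5% were higher in both and 13.3% lower in both. Ccn2, a matricellular growth factor, measured 2.36 and 7.69 CPM in the controls, and 18.3 and 4.35 CPM after withdrawal, so the groups overlapped. In the libraries collected at 5 days it was 10.5 to 18.1 CPM with DMSO and 570 to 827 CPM with TRULI. The LIM-domain gene Ajuba measured 7.99 and 11.5 CPM against 8.11 and 5.56 CPM. At 5 days it was 11.1 to 14.8 CPM with DMSO and 87.8 to 165 CPM with TRULI.

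Myc, the growth-promoting transcription factor, measured 8.17 and 6.41 CPM in the controls, and 39.7 and 22.7 CPM after withdrawal, a log2 fold change of 2.08 ± 0.72 (SE, adjusted p = 0.905 in edgeR, 0.33 in DESeq2). Amotl2, which binds Yap at junctions, was high in 1 library only, with 10.9 and 2.99 CPM against 66.9 and 7.01 CPM. On the broader list of 22 Yap-Tead targets, 19 were tested. Axl, a receptor tyrosine kinase, was higher in both TRULI libraries, 0 were lower in both and 18 overlapped, beside 15.5% of all tested genes higher and 13.3% lower. The median log2 fold change of that list was 0.05, and its abundant members Tgfb2 (616 to 715 CPM), Igfbp3 (246 to 332 CPM) and Crim1 (204 to 337 CPM) overlapped.

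Whether the effect after withdrawal differed from that at 5 days was tested as an interaction in one edgeR fit of all 10 libraries, chosen after seeing the data. No gene of 11861 passed at an adjusted p under 0.05, and 1120 had an unadjusted p under 0.05; no other tool was run on it. For Ajuba the log2 fold change was 3.23 at 5 days and -0.51 after withdrawal, a difference of -3.74 ± 0.58 (SE, adjusted p = 0.0893). Mest, an imprinted hydrolase gene, gave 2.59 and -0.17, with the same adjusted p. Ccn2 gave 5.56 and 1.30 (adjusted p = 0.180), and Ephx1, which encodes a microsomal epoxide hydrolase, 2.26 and -0.41 (adjusted p = 0.180). Ovca2 went the other way, with 0.06 at 5 days and 3.08 after withdrawal (adjusted p = 0.157). Ifitm10 and Fancb, each near 0 in one withdrawal group, also had an adjusted p of 0.180. The adjusted values in this paragraph are from the quasi-likelihood test of edgeR after Benjamini and Hochberg.

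Genes of cell division gave no common direction. Of 43 S-phase genes 27 were tested, and 1 (Usp1) was higher in both TRULI libraries and 3 lower in both (Mcm2, Uhrf1 and Cdc45). Of 54 G2/M genes 27 were tested, with 5 higher in both (Cdk1, Tmpo, Ccnb2, Psrc1 and Cenpa) and 2 lower in both (Tpx2 and Ckap5). Their median log2 fold changes were 0.03 and 0.26. Among all tested genes 15.5% were higher in both and 13.3% lower in both. Mki67, which marks cycling cells, had 3 counts in control replicate 1 and none in the other 3 libraries, while the TRULI libraries of 5 days held 31.1 to 148 CPM. Cdk1, the mitotic kinase, had 3 counts in the controls together and 9.14 and 3.87 CPM after withdrawal, a ratio of 17.5 with a 95% exact counting interval of 5.72 to 87.4.

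Among the 5 cyclin-dependent kinase inhibitors that could be tested, Cdkn1c was higher in both TRULI libraries, at 10.4 and 16.4 CPM against 4.54 and 5.13 CPM. The other 4 overlapped, including Cdkn1a at 55.5 to 93.7 CPM. This was 1 of 5 higher, beside 15.5% of all tested genes. Of 19 tested pro-apoptotic genes, 4 were higher in both (Bid, Casp6, Casp9 and Apaf1), 2 lower in both and 13 overlapped, beside 15.5% of all tested genes higher and 13.3% lower, and 1 of the 19 had an unadjusted p under 0.05. Apaf1, the scaffold of the apoptosome, measured 4.72 and 1.71 CPM in the controls, and 31.4 and 15.9 CPM after withdrawal.

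Inflammatory genes could be tested for 9 of 22 listed, of which 5 were higher in both TRULI libraries (Cxcl10, Lcn2, Serpina3n, Tlr2 and Irf1), 0 lower in both and 4 overlapped, beside 15.5% of all tested genes higher in both. At an unadjusted p under 0.05 there was 1 of the 9. Lcn2, an iron-sequestering acute-phase protein (chromosome 2, 32384633 to 32388252), measured 245 and 156 CPM in the controls, and 648 and 477 CPM after withdrawal. Its treated replicates were close and clear of the controls, and the log2 fold change was 1.49 ± 0.40 (SE, adjusted p = 0.844 in edgeR, 0.136 in DESeq2). All 4 libraries exceeded the 14.3 to 16.2 CPM of the DMSO libraries of 5 days. Nfkbia, Stat3 and Socs3, which respond to the same cytokine pathways, overlapped between the groups.

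Over all tested genes, those with the lowest p among genes higher after withdrawal included Cfap77, Ifitm10, Tmem178b, Loxhd1, Ovca2, Mindy4b-ps, Pou4f3, Otof and Fank1. Ovca2, a serine hydrolase gene, had close replicates in both groups, with 8.90 and 8.55 CPM in the controls and 72.7 and 78.3 CPM after withdrawal. Its log2 fold change was 3.10 ± 0.57 (SE, adjusted p = 0.683 in edgeR, 0.000427 in DESeq2). Ifitm10 had no count in either control and 18.3 and 21.3 CPM in the treated libraries, so it was at least 51.4-fold higher, taking 3 counts over the control group as the floor.

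The 10 genes with the lowest p among those lower were Adck1, Polg, Bbox1, Gm49320, Fancb, Rem2, Hpdl, Il1rap, Klc2 and Atg4c. Adck1, a mitochondrial kinase-like gene, measured 81.5 and 110 CPM in the controls, and 13.51 and 19.6 CPM after withdrawal, a log2 fold change of -2.54 ± 0.55 (SE, adjusted p = 0.844 in edgeR, 0.00366 in DESeq2). Polg, the mitochondrial DNA polymerase, measured 45.8 and 155 CPM against 9.98 and 16.2 CPM. For Klc2, a kinesin light chain, the difference came mostly from control replicate 2, with 6.54 and 106 CPM in the controls against 4.36 and 1.69 CPM. Il1rap and Atg4c had the same form, and Bbox1 and Fancb had at most 2 counts in the treated libraries together.

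The 42 genes that DESeq2 called higher included 40 whose groups did not overlap, beside 15.5% of all tested genes higher in both. The same 4 libraries gave the calls and the overlap, so the 40 are no separate support. In 27 of the 42 TRULI replicate 1 was the higher of the pair, beside 48.9% of all tested genes. Without that replicate DESeq2 called 14 higher and 0 lower, none of them on the hair-cell lists; without TRULI replicate 2 it called 102 higher and 12 lower, with 12 on those lists. Of the 7 hair-cell genes called with all 4 libraries, 0 were called without TRULI replicate 1, 3 without either control and 7 without TRULI replicate 2. In each of these fits 1 group held a single library, which was assumed to vary like the other group. Without TRULI replicate 1 the edgeR log2 fold changes were lower but kept their sign, at 2.40 for Pou4f3, 2.84 for Otof, 3.35 for Calb2 and 2.26 for Clrn1.

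Some large differences came from single libraries. Among genes of at least 50 CPM in one TRULI withdrawal library, the ratios of replicate 1 over replicate 2 were high for Ica1l, Myot, Xirp2, Gm10643, Shroom4, Synpr, Adam11, Zkscan2 and Syt14. Myot, a muscle protein, had 88.5 CPM in replicate 1 and no count in the other 3 libraries. The lowest ratios were those of Fastkd5, Rgs7, Zfp260, Atg10, Trim59, Ptges2, Prkch, Oasl2, Tpm3-rs7 and Zc3h8. Oasl2, an interferon-induced gene, had 159 CPM in replicate 2 and 9.56 CPM in replicate 1, against 8.35 and 3.85 CPM in the controls.

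Defining markers of other cell types were mostly at or near 0. The 10 macrophage markers summed to 1.04 to 21.5 CPM, with 7 at 0 in all 4, and most of it was Cd68. Endothelial markers summed to 0 to 3.74 CPM in 3 libraries and to 92.7 CPM in control replicate 2, where all of it was Ptprb, while 6 of 10, Cdh5 and Kdr among them, were at 0 in all 4. Fibroblast markers summed to 41.4 and 47.9 CPM in the controls and to 117 and 42.8 CPM in the treated libraries, and Schwann-cell and neuronal markers to 63.7 and 68.8 CPM against 157 and 74.2 CPM, so both were highest in TRULI replicate 1, as hair-cell genes were; their part in the result was not tested. Of these, Tbx18, Otor, Prx, Nefh and Prph were at 0 in all 4 libraries, and Col1a2 (17.5 to 75.4 CPM) and Mbp (60.7 to 140 CPM) made up much of the sums. Muscle markers summed to 17.2 to 108 CPM, nearly all of it Myod1, with Myog, Myf5, Acta1, Ckm and Tnnt3 at 0. Dark-cell and melanocyte markers summed to 272 to 349 CPM, mostly Slc12a2, with Kcne1, Bsnd, Tyr and Mlana at 0. Xist (81.8 to 99.5 CPM) and the Y-linked Ddx3y (27.2 to 64.1 CPM) were present in all 4 libraries.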

How the data were processed

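Count tables of 10 libraries were analysed, 2 per group in the comparison. Per the labels and methods, the authors aligned reads with STAR to GRCm38 (mm10); the counting program is not given in the sources used here. The deposited expected counts per gene were rounded to whole numbers. Groups followed the deposited file names. Of 48709 genes, 48349 matched GENCODE M21 and 21695 were protein-coding; genes were filtered with filterByExpr (minimum count 10).

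edgeR 4.0.16 (R 4.3.3; quasi-likelihood test, trimmed-mean scaling, Benjamini-Hochberg adjustment, adjusted p under 0.05 and log2 fold change beyond 1) was fitted to the 4 libraries. It was tested on simulated data, where hardly any 4-fold change passed at a spread near the one fitted here. DESeq2 1.42.0, DESeq2 size factors, no filter, all 10 libraries, a replicate block, every biotype, grouping by title and leaving out each library were alternatives.

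Members and lists were chosen with earlier results of these data known. Genes named were those the study labels, the 4 most abundant of each list, the 10 with the lowest p in each direction, Lfng, Sox2, Ccn2, Ajuba, Mki67, Ephx1 and Mest, and the 10 most unequal between TRULI replicates in each direction at 50 CPM or more. Other list members, such as Cabp2, Cib2 and Apaf1, were named after their values were seen. Counting intervals cover counting error only. A few genes that these rules name are not reported here.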

Additional observations from a re-analysis of the deposited data

How the results depend on the processing

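By edgeR, 0 genes passed with DESeq2 size factors, all 10 libraries in one fit or every biotype. DESeq2 called 42 higher and 8 lower, edgeR with no filter 153 and 45 (14633 tested), and grouping by title 132 and 133. Leaving out 1 library gave 0 to 26 higher, with 26 only without TRULI replicate 2, and 0 to 2 lower, with 2 only without DMSO replicate 1. The cause was not tested. The chosen alternatives added after seeing the data were DESeq2 without each library, the interaction, and the recount of hair-cell genes, of which 6 rather than 18 did not overlap with higher TRULI values by title.

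With the replicate number as a block, 0 genes passed and 622 had an unadjusted p under 0.05, against 516 without it. Deviations of same-numbered libraries correlated at 0.183 over 10845 genes and those of different-numbered libraries at -0.183, which mirrors it by construction with 2 pairs. The labels tie the numbers to no animal or day, and 2 pairs cannot decide whether the libraries are paired.

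Of the fold changes of 33 genes, 22 kept their direction under every alternative. By title, the controls were the libraries named as TRULI at 5 days, replicates 2 and 3, where Ajuba measured 100 and 87.8 CPM. Against them the log2 fold change reversed to 0.36 for Adck1, 2.83 for Rem2, -2.34 for Lfng, -5.67 for Ccn2 and 0.53 for Ephx1. It also reversed to -0.97 for Calb2, -0.71 for Amotl2, 2.07 for Mitf and 10.22 for Myod1. Leaving out 1 library, it ran from -0.034 to 4.83 for Lhx3, -0.19 to 2.25 for Ccn2 and -0.0365 to 3.60 for Amotl2, lowest without TRULI replicate 1, and from -0.99 to 0.57 for Ephx1 and -0.44 to 0.18 for Mest, highest without DMSO replicate 2.

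Grouped by title, the log2 ratio of summed CPM, TRULI over DMSO, moved to -0.36 for transduction, -2.34 for synapse, -0.75 for cilium, -0.64 for supporting-cell, -2.89 for the study's Yap targets, -1.28 for the broader Yap list, -1.25 for S phase, -0.63 for G2/M, -0.084 for kinase inhibitors, 1.27 for inflammation, 0.25 for endothelial, 4.51 for muscle, 0.083 for dark-cell, 0.56 for hair-cell markers and -1.36 for supporting-cell markers. Leaving out 1 library, it ran from -0.073 to 1.15 for hair-cell transcription factors, 0.10 to 0.93 for stereocilia, -0.44 to 1.27 for transduction, -0.22 to 1.22 for cilium, -0.17 to 0.26 for supporting-cell, -0.55 to 1.15 and -0.13 to 0.20 for the 2 Yap lists, -0.16 to 0.043 for G2/M, 0.10 to 0.53 for kinase inhibitors, -0.12 to 0.34 for apoptosis, -2.03 to 1.43 for macrophage, -5.59 to 0.23 for endothelial, -0.0605 to 1.37 for fibroblast, 0.16 to 1.23 for Schwann-cell and 1.82 to 4.57 for hair-cell markers, the lowest without TRULI replicate 1.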

Other observations

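Myod1, the myogenic transcription factor, measured 39.6 and 106 CPM in the DMSO withdrawal libraries and 17.2 and 57.3 CPM in the TRULI withdrawal libraries, and at most 0.46 CPM in the 6 libraries of 5 days, while Myog had no count in the 4 withdrawal libraries. Fank1, a gene of fibronectin and ankyrin repeats, had 1 count in the controls together and 6.23 and 48.8 CPM after TRULI withdrawal, so it was high in the opposite replicate to most hair-cell genes.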
